A study of Mus musculus with 9 samples.

Results

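The let-7 family of guide strands was measured in the hippocampus of mice that received fine particulate matter (PM2.5) or saline. The family comprised 9 of the 1247 mouse miRNAs on the array, namely mmu-let-7a-5p, mmu-let-7b-5p, mmu-let-7c-5p, mmu-let-7d-5p, mmu-let-7e-5p, mmu-let-7f-5p, mmu-let-7g-5p and mmu-let-7i-5p and their relative mmu-miR-98-5p, written without prefix and strand below. They were chosen by name. The mice were male C57BL/6, approximately 8 weeks old, with no transgene or deletion named in any group, and 3 mice were measured in each group with 1 array per mouse. The control group received saline by oropharyngeal aspiration, in which a droplet placed at the back of the throat is breathed in. The other groups received PM2.5 in the same way at a dose of 1 or 5 mg/kg body weight (bw). All 3 groups were dosed every other day for 4 weeks. The study's methods also describe a vehicle control made from a blank filter membrane, whereas the control arrays are labelled saline, so that all differences below are against plain saline.

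A miRNA is a short RNA that guides an Argonaute protein to matching sites in messenger RNAs, and the bases near its 5′ end, the seed, largely set which messages it recognises. let-7 miRNAs repress messages of proliferation and of the undifferentiated state, among them those of Ras, Hmga2 and Lin28, while the Lin28 proteins in turn block the maturation of let-7 precursors. In the nervous system let-7 is known to rise as neurons differentiate and to stay abundant in the adult brain. Several genes encode the family, so that the question asked of these arrays was which paralogs gave the most signal and whether they shifted together with the dose of PM2.5.

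All 9 mature strands were found in the RefSeq miRNA table (GRCm38.p6) and are shown because their near identity bears on every value that follows. Each has 22 bases, and capitals mark the seed (bases 2 to 8).
let-7a: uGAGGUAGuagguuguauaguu
let-7b: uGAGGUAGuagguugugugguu
let-7c: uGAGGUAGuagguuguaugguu
let-7d: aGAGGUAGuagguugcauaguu
let-7e: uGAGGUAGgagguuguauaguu
let-7f: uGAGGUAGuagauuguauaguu
let-7g: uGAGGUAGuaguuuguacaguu
let-7i: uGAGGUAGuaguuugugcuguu
miR-98: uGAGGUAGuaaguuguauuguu

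The seed was the same in all 9, and 11 mature names in the table carried it, the other two being let-7k and miR-1961. Counting from the 5′ end, let-7a differed from let-7c by A19G, from let-7e by U9G and from let-7f by G12A. It differed from let-7b by A17G and A19G, from let-7d by U1A and U16C, from let-7g by G12U and U18C, and from miR-98 by G11A and A19U. The member farthest from let-7a was let-7i, with G12U, A17G, U18C and A19U. Over the 36 pairs of members the number of differing bases ran from 1 to 6.

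The strands come from 12 hairpins of the RefSeq annotation of GRCm38.p6. Mirlet7a-1 (chr13:48538179-48538272), Mirlet7f-1 (chr13:48537829-48537917) and Mirlet7d (chr13:48536012-48536114) lie together on the minus strand. Mirlet7c-2 (chr15:85706603-85706697) and Mirlet7b (chr15:85707319-85707403) lie within the span of the long non-coding RNA gene Lncppara. Mirlet7f-2 (chrX:151912346-151912428) and Mir98 (chrX:151913214-151913321) lie within the span of the protein-coding gene Huwe1. Mirlet7a-2 (chr9:41536716-41536811) lies in the long non-coding RNA gene Mir100hg beside Mir100, Mirlet7c-1 (chr16:77599657-77599750) beside Mir99a, and Mirlet7e (chr17:17830352-17830444) beside Mir99b and Mir125a within the span of Spaca6. Mirlet7g (chr9:106178840-106178927) lies within the span of Wdr82, and Mirlet7i (chr10:122985640-122985724) within no other gene, and neither has another miRNA gene within 10000 bases. let-7a, let-7c and let-7f thus each have more than 1 hairpin, and a mature strand on the array does not say from which one it came.

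Each member was measured by 2 DNA probes with 20 spots each. The probes were complementary to 18 to 22 bases of the strand, starting at base 1 to 5 and all ending at base 22. Of the 18 probes, 12 had a single mismatch to at least 1 other member and the other 6 had 2 mismatches to their closest member. One probe each of 5 members is shown, to make these single mismatches visible, with capitals at the bases where the closest other members mismatch.
let-7a probe: aacTatAcaaCctActacc
let-7c probe: aacCaTacaacctactacc
let-7b probe: aaccaCacaacctactacc
let-7d probe: aactatGcaacctactacc
let-7e probe: aactatacaacctCctacc
The let-7a probe mismatches let-7c, let-7d, let-7e and let-7f at 1 base each, and the let-7c probe mismatches let-7a and let-7b at 1 base each. How much of a probe's signal came from a paralog was not measured. Signals of different probes also need not be in proportion to the number of molecules, so the order of the paralogs below is an order of array signals.

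All 9 members were detected on all 9 arrays, and 0 spots were saturated. Signals are given as log2 of the miRNA's signal over the 75th percentile of its array (492 to 614 units), so that 0 is the signal of that percentile and a step of 1 is a doubling. Between 410 and 436 miRNAs were detected per array, and 424 entered the tests, which are those detected throughout at least 1 group. The markers of neurons, miR-124-3p, miR-9-5p and miR-128-3p, were detected on all 9 arrays, whereas the liver miRNA miR-122-5p and the heart miRNA miR-208a-3p were detected on none. The muscle miRNAs miR-1a-3p and miR-133a-3p were detected at low levels (control log2 level -2.39 and -4.07). With 3 arrays per group, precision is limited throughout. Slide 1 held all arrays but 1, with the 3 controls in row 1 beside 1 mg/kg bw replicate 1, while replicate 3 of the 5 mg/kg bw group was the sole array on slide 2 and in its own scan.

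In the saline controls the let-7 family carried 16.7% ± 1.15 (SD, n = 3) of the summed signal of all mouse miRNAs. The share was 15.9% ± 1.27 (SD, n = 3) at 1 mg/kg bw and 15.6% ± 1.38 (SD, n = 3) at 5 mg/kg bw. On single arrays it was 17.9%, 16.8% and 15.6% in the control group, 14.7%, 15.7% and 17.2% at 1 mg/kg bw, and 14.3%, 15.4% and 17.1% at 5 mg/kg bw. The 3 groups overlapped. The control share was 13.3% ± 0.815 (SD, n = 3) when taken from the files' own total signals and 14.2% ± 0.331 (SD, n = 3) in the deposited log2 table, both lower by more than the spread between control arrays.

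let-7c gave the highest signal of the family, with a control log2 level of 5.75 ± 0.15 (SD, n = 3), at rank 5 of the 424 tested miRNAs. let-7a followed at 5.66 ± 0.09 (SD, n = 3) and rank 7. Next came let-7f at 5.27 ± 0.04 (SD, n = 3) and let-7b at 4.97 ± 0.20 (SD, n = 3), at ranks 9 and 10. These 4 strands made up 21.8%, 20.5%, 15.7% and 12.7% of the family's control signal, in this order.

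The middle of the order held let-7g at 4.52 ± 0.12, let-7d at 4.31 ± 0.10, let-7i at 3.93 ± 0.08 and let-7e at 3.62 ± 0.05 (SD, n = 3 controls each), at ranks 14, 16, 19 and 21. Their shares of the family signal were 9.34%, 8.06%, 6.19% and 5.00%. miR-98 stood apart at 0.78 ± 0.02 (SD, n = 3), rank 77, with 0.700% of the family signal. It lay 2.84 log2 units below let-7e, its neighbour in the order. miR-98 and let-7f-2 are encoded side by side in Huwe1, yet let-7f was among the brightest members and miR-98 the dimmest. let-7f also has a hairpin on chromosome 13.

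**Figure D1:**
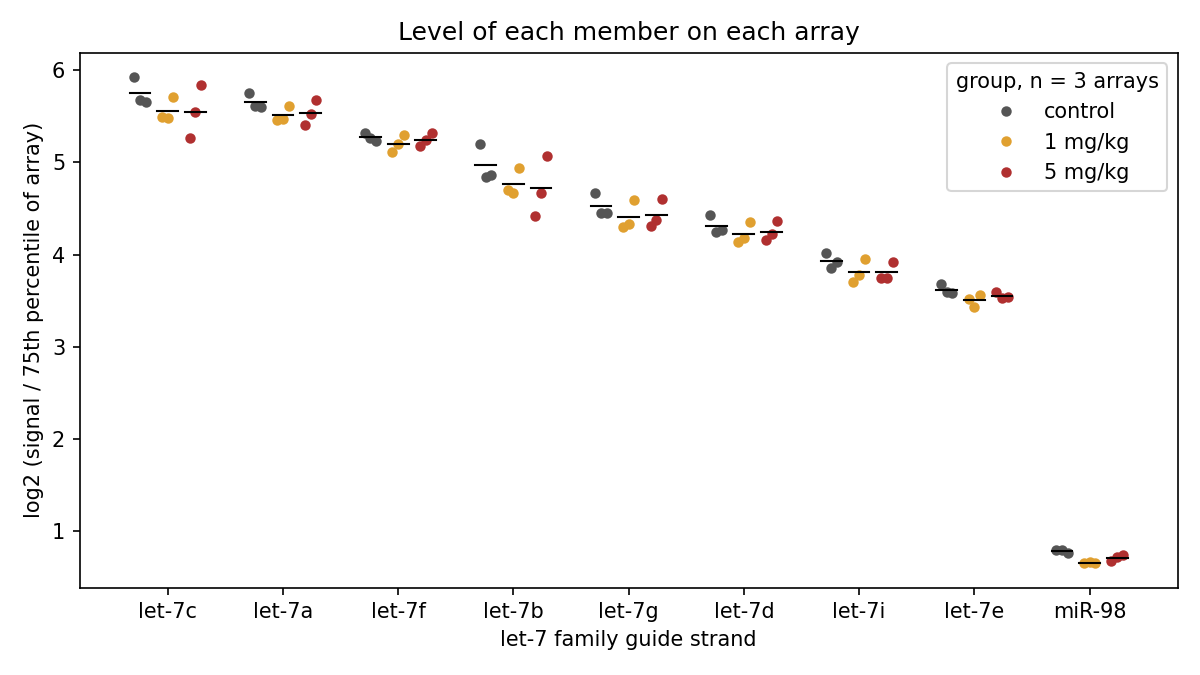
Level of each let-7 family member on each array, as log2 of the signal over the array's 75th percentile, in the control, 1 mg/kg and 5 mg/kg groups (points are arrays, n = 3 per group, bars are group means). The order from let-7c at 5.75 to miR-98 at 0.78 in the controls recurs in the PM2.5 groups, and the group means of a member lie within 0.25 of each other.

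The order of neighbours was the same on all 9 arrays for every pair but the first. let-7c exceeded let-7a on 8 of 9 arrays, by 0.09 ± 0.06 (SD, n = 3) in the controls, and the difference ran from -0.14 to 0.17. Within the 3 control arrays it was 0.05 to 0.17, and it turned to -0.14 on 5 mg/kg bw replicate 1. The order of let-7c and let-7a was therefore not the same throughout. let-7f exceeded let-7b by 0.30 ± 0.16 (SD, n = 3) in the controls and by 0.12 to 0.76 over all arrays. The same order of control means was found with normexp background correction, the files' own total signals, the mean over probes, the brighter probe alone and the deposited log2 table.

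let-7k, which bears the same seed and is not one of the 9, was detected on all 9 arrays at a far lower signal of 30.1 units on average in the controls (log2 level -4.14), where let-7a had 26752 units. miR-1961 was detected on no array.

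At 1 mg/kg bw the mean of each of the 9 members lay below the control mean, by small amounts that did not pass the test for any of them. The differences ran from -0.20 for let-7b to -0.07 for let-7f on the log2 scale, with a median of -0.12. The median of all 424 tested miRNAs was -0.032, and 60.1% of them lay below 0. Of the members, 0 of 9 had an unadjusted p under 0.05 in limma, where 7.78% of all tested miRNAs had one, and 0 of 9 had an adjusted p under 0.05, where 0.236% had one. Without overlap between the groups, let-7e and miR-98 were lower, 2 of 9, where 7.55% of the tested miRNAs were lower in that way.

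miR-98 came closest to the threshold. Its log2 level was 0.79, 0.80 and 0.76 in the controls and 0.65, 0.66 and 0.65 at 1 mg/kg bw. All 3 PM2.5 arrays lay below all 3 controls, in a narrow range. The difference was -0.13 (standard error 0.06, adjusted p = 0.543 in limma), and the two-sided exact permutation test gave p = 0.1, the smallest that 3 against 3 arrays allow. The spread of miR-98 within groups was the second smallest of all 424 tested miRNAs, and limma draws such a spread towards that of the others. With the least significant difference (LSD) comparison that the study's methods name, which uses each miRNA's own spread, the unadjusted p of miR-98 was 0.00063. Its adjusted p in that comparison was 0.0811 over all tested miRNAs.

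let-7e, encoded with miR-99b and miR-125a, was at 3.68, 3.60 and 3.58 in the controls and at 3.51, 3.43 and 3.56 at 1 mg/kg bw. These groups did not overlap, though the lowest control and the highest PM2.5 array were close. The difference was -0.12 (standard error 0.07, adjusted p = 0.597 in limma, two-sided exact permutation p = 0.1).

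let-7b showed the largest mean difference and also the widest spread. It was at 5.20, 4.84 and 4.86 in the controls and at 4.69, 4.66 and 4.93 at 1 mg/kg bw. Replicate 3 of the PM2.5 group lay above 2 of the 3 controls. The difference was -0.20 (standard error 0.17, adjusted p = 0.802 in limma).

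let-7c, which differs from let-7b by G17A, was at 5.92, 5.68 and 5.65 in the controls and at 5.49, 5.48 and 5.70 at 1 mg/kg bw, a difference of -0.19 (standard error 0.15, adjusted p = 0.802 in limma). let-7a was at 5.76, 5.61 and 5.60 in the controls and at 5.46, 5.47 and 5.60 at 1 mg/kg bw, a difference of -0.14 (standard error 0.09, adjusted p = 0.689 in limma). As for let-7b, it was replicate 3 that reached the level of the controls. let-7d, let-7f, let-7g and let-7i differed by -0.12 to -0.07, with adjusted p-values of 0.799 to 0.865 in limma and overlapping groups.

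At 5 mg/kg bw all 9 means again lay below the control mean, with a median of -0.09, from -0.25 for let-7b to -0.02 for let-7f. The median of all tested miRNAs was -0.0035, and 51.2% lay below 0. Of the members, 0 of 9 had an unadjusted p under 0.05 in limma, where 9.43% of the tested miRNAs had one, and the lowest adjusted p of a member was 0.698. miR-98 alone was lower without overlap, 1 of 9, where 9.43% of all tested miRNAs were lower without overlap. Both doses were set against the same 3 control arrays, so that the directions at the 2 doses are not separate evidence.

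The 5 mg/kg bw arrays of let-7b were at 4.41, 4.67 and 5.07 and those of let-7c at 5.26, 5.55 and 5.84. Replicates 1 and 2 lay below all controls and replicate 3 above 2 of the 3 controls for both strands. The differences from the control were -0.25 (standard error 0.17) for let-7b and -0.20 (standard error 0.15) for let-7c, each with an adjusted p of 0.698 in limma.

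miR-98 was at 0.67, 0.72 and 0.74 at 5 mg/kg bw, below all 3 controls, with a difference of -0.07 (standard error 0.06, adjusted p = 0.711 in limma, two-sided exact permutation p = 0.1). let-7e was at 3.59, 3.52 and 3.54, with replicate 1 inside the range of the controls and a difference of -0.07 (standard error 0.07, adjusted p = 0.760 in limma). let-7f was at 5.17, 5.25 and 5.32 against 5.32, 5.26 and 5.23 in the controls, so that its groups overlapped almost fully. Its 95% confidence interval ran from -0.19 to 0.14, and that of let-7b from -0.65 to 0.15, so that a moderate fall or no change could not be distinguished for let-7b with these arrays.

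**Figure D2:**
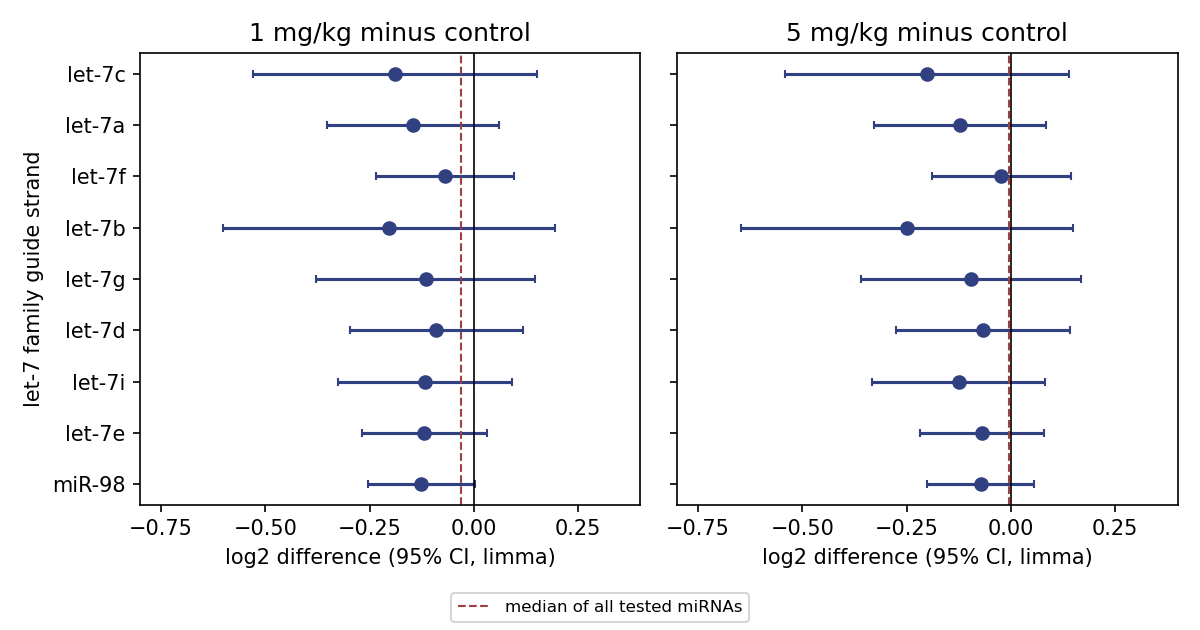
Log2 difference of each let-7 family member from the control at 1 mg/kg (left) and 5 mg/kg (right), with 95% confidence intervals from the limma fit over 9 arrays, and the median difference of all 424 tested miRNAs (dashed line, at -0.032 and -0.0035). All 18 point estimates lie below 0 and all 18 intervals include 0.

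Between the doses the members did not keep one direction. From 1 to 5 mg/kg bw, 6 of 9 means were higher and 3 were lower, with a median of 0.02 and a range from -0.04 for let-7b to 0.05 for miR-98, where the median of all tested miRNAs was 0.04 and 67.9% lay above 0. Of the members, 0 of 9 had an unadjusted p under 0.05 in limma, where 3.77% of the tested miRNAs had one. miR-98 was higher without overlap, 1 of 9, where 5.90% of the tested miRNAs were higher in that way. Its arrays at 5 mg/kg bw thus lay between those at 1 mg/kg bw and the controls. The slope over dose was below 0 for all 9 members, where 46.2% of the tested miRNAs had a slope below 0, with a median of -0.01 log2 units per mg/kg, from -0.04 for let-7b to -4.33e-05 for let-7f. None of the 9 slopes had an unadjusted p under 0.05 in limma, where 6.60% of all tested miRNAs had one, and the lowest adjusted p was 0.798.

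The direction of these shifts depended on the scaling between arrays. From the files' own total signals, the median of the members was 0.02 at the lower and 0.06 at the higher dose, and 3 and 2 of the 9 members lay below 0. The median of all tested miRNAs then moved to 0.10 and 0.14, so that the members differed from it by -0.08 at both doses, as against -0.09 in the values given above. Without scaling the median of the members was -0.0091 and 0.02, and 7 and 4 members lay below 0, while the median of all tested miRNAs was 0.08 and 0.11. Leaving out the scaling moves all miRNAs of an array alike, so that the members again differed from that median by -0.09 at both doses. After quantile normalization it was 0 and -0.03, and the deposited values gave 0 and -0.03, with 4 members below 0 at the lower dose and 5 at the higher dose in either. The members then differed from the median of all tested miRNAs by 0.012 at the lower and -0.038 at the higher dose after quantile normalization, by 0.013 and -0.036 in the deposited values, and by -0.046 and -0.028 with normexp background correction. Quantile normalization gives a rank the same value on every array, so that a miRNA that keeps its rank has a difference of 0. With 8 of the 9 members at control ranks 5 to 21, a median of 0 there does not show whether their signals shifted.

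Of the 18 probes of the family, 18 had a lower mean than the controls at the lower dose and 16 did at the higher dose. The exceptions were the shorter probe of let-7d, at 0.0066, and the shorter probe of let-7f, at 0.03. The probe differences ran from -0.21 to -0.04 and from -0.28 to 0.03 at the 2 doses. Of all tested miRNAs, 60.1% lay below 0 at the lower dose and 51.2% at the higher dose, and the share over all probes was not counted. The 18 probes share the scaling of their arrays and many nearly match other members, so that they are not separate evidence of a shift.

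Most members moved together from array to array. The mean log2 level of the 9 members was 4.42, 4.26 and 4.26 on the control arrays, 4.12, 4.13 and 4.29 on those of the lower dose and 4.08, 4.17 and 4.34 on those of the higher dose. Control replicate 1 was highest, and replicate 3 of either PM2.5 group lay above 2 of the 3 controls. The whole range was 0.34 and the within-group SD 0.11, about the size of the median shift at either dose.

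**Figure D3:**
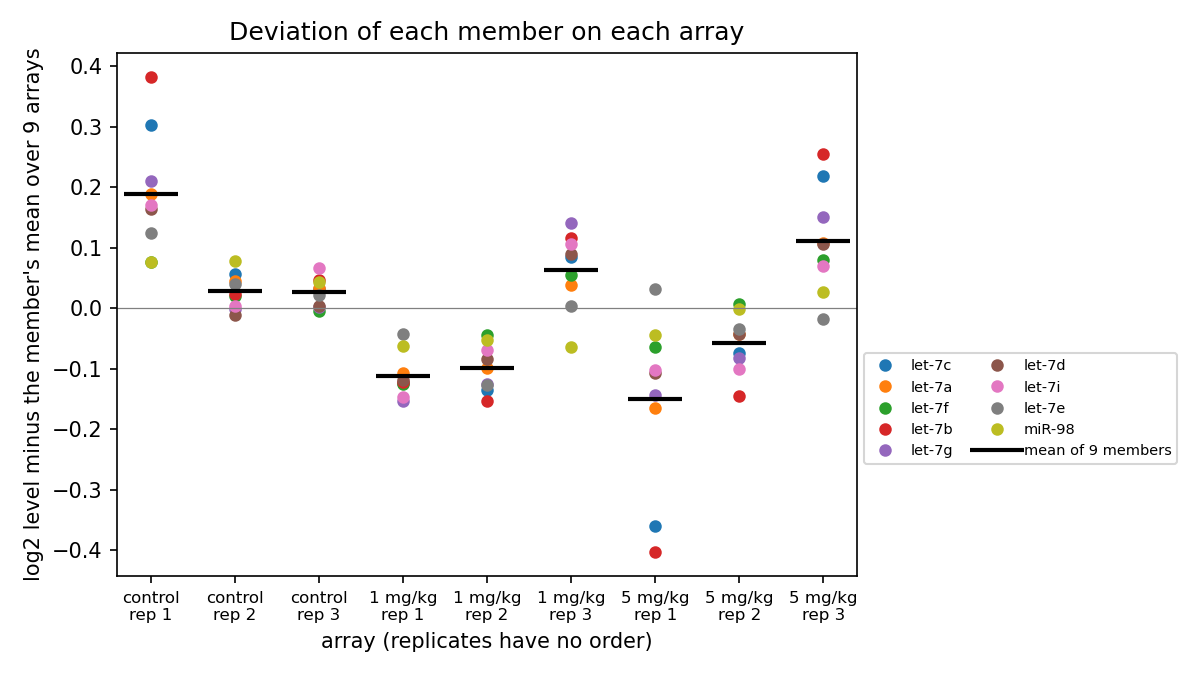
Deviation of each let-7 family member from its own mean over the 9 arrays (log2, points), with the mean of the 9 members (black bar), by array. On the arrays whose mean is far from 0 nearly all members lie on the same side of 0, and let-7b and let-7c lie farthest out on control replicate 1 and on 5 mg/kg replicates 1 and 3.

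Pearson's r of the log2 levels over the 9 arrays was above 0 for all 36 pairs of members, with a median of 0.85, where the median over all pairs of tested miRNAs was 0.023. With the group means removed the median over the members was again 0.85. let-7e then had an r of 0.24 to 0.50 with the other let-7 members and of -0.20 with miR-98. These are descriptions, since the points share their array's scaling, labelling and RNA. let-7d and let-7g reached 0.995 and let-7b and let-7c 0.992. let-7e was least like the rest, down to 0.46 with let-7c, and the r of miR-98 with the other members was 0.52 to 0.74.

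Among the pairs that differ by 1 base, let-7b and let-7c had an r of 0.99 and let-7a and let-7c one of 0.98. In the same set, let-7a and let-7f had an r of 0.88 and let-7a and let-7e one of 0.60. let-7d and let-7g differ by 4 bases. let-7e and miR-98 had the smallest within-group SD of the family (0.05 and 0.02). Whether likeness followed the sequence was not tested. let-7d and let-7a, which share a cluster on chromosome 13, had an r of 0.95, and miR-98 and let-7f, which share Huwe1, had an r of 0.59.

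**Figure D4:**
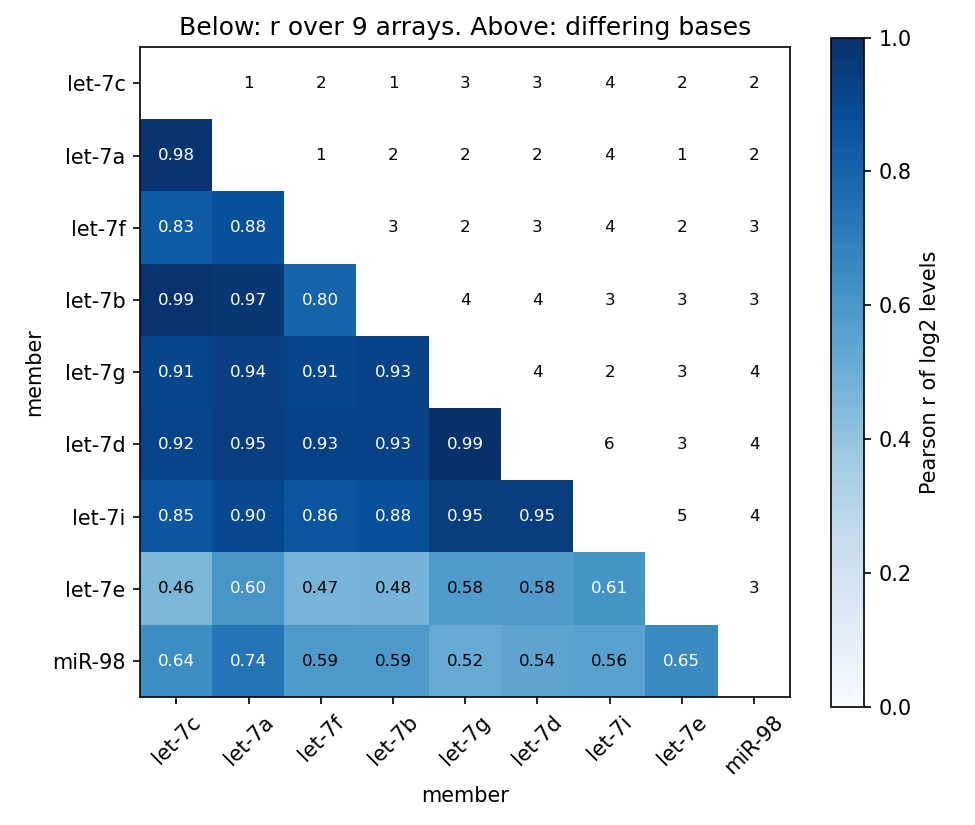
Pairs of let-7 family members in the order of their control signal. Shaded cells below the diagonal give Pearson's r of the log2 levels over 9 arrays, and cells above it the number of bases by which the mature strands differ. The lowest r, from 0.46, are in the rows of let-7e and miR-98. Pairs that differ by 1 base had an r from 0.60 (let-7a and let-7e) to 0.99 (let-7b and let-7c).

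The within-group SD of let-7b (0.24) and let-7c (0.20) was larger than that of the other members, which was 0.15 for let-7g, 0.10 to 0.11 for let-7a, let-7d and let-7i, and 0.07, 0.05 and 0.02 for let-7f, let-7e and miR-98. The median over all tested miRNAs was 0.14. Relative to the mean of the family, let-7b differed from the control by -0.07 at the lower and -0.13 at the higher dose, and let-7c by -0.06 and -0.09. let-7f differed by 0.06 and 0.09 and let-7d by 0.04 and 0.05. let-7b and let-7c together, a pair picked after their values were seen, lay above the mean of the other 7 members by 1.34 ± 0.11 in the controls, 1.26 ± 0.05 at the lower dose and 1.20 ± 0.23 at the higher dose (SD, n = 3 each). The last group ran from 0.97 on replicate 1 to 1.43 on replicate 3, which spans the controls at 1.28 to 1.47.

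Single arrays moved the medians. Without replicate 3 of the 5 mg/kg bw group, the median of the members at 5 mg/kg bw was -0.18, and let-7b at -0.43 and let-7c at -0.35 then had unadjusted p-values under 0.05 (adjusted p = 0.165 in limma for both), 2 of 9, where 28.3% of all tested miRNAs did. Without 5 mg/kg bw replicate 1 the median was -0.06. Without 1 mg/kg bw replicate 3 the median at 1 mg/kg bw was -0.19. The median between the doses turned to -0.05 without 5 mg/kg bw replicate 3 and to -0.02 without 1 mg/kg bw replicate 1, with 6 of 9 members lower at the higher dose in either case. It was 0.0002 without 1 mg/kg bw replicate 2, with 4 members lower, and 0.04 without 5 mg/kg bw replicate 2, with 2 lower. It was 0.07 without 1 mg/kg bw replicate 3, and it was 0.08 when 5 mg/kg bw replicate 1 was left out, with 0 of 9 lower in both. When the row was fitted as a block, the medians were -0.08 and -0.07, with all 9 members below 0 at both doses. Such settings move the other tested miRNAs too, and their medians and shares below 0 are not given beside these counts. The counts are therefore not read as particular to the members.

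Within row 1 of slide 1, where the 3 controls lay beside 1 mg/kg bw replicate 1, that array was below the control mean for all 9 members, with differences from -0.27 to -0.11. Within row 2, the pair of arrays at the higher dose lay below the pair at the lower dose for 7 members, with differences from -0.26 to -0.03, and above them for let-7e, by 0.06, and miR-98, by 0.04. The array at 5 mg/kg bw on slide 2 lay above the control mean for 6 members and below it for let-7e, let-7i and miR-98, with differences from -0.08 to 0.10. Row and dose overlapped in part, since all controls lay in row 1.

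The summed signal of the 3 neuronal miRNAs, in multiples of the 75th percentile, was 136.5 to 158 in the controls, 115 to 137 at 1 mg/kg bw and 129 to 152 at 5 mg/kg bw. It overlapped the controls at both doses, at the lower dose by little (highest array 136.9, lowest control 136.5). At the lower dose the mean log2 level of all 3 was below that of the controls. It was 5.55 against 5.70 for miR-124-3p, 4.27 against 4.30 for miR-9-5p and 5.91 against 6.20 for miR-128-3p. At the higher dose the mean log2 level of miR-9-5p was 4.44 against 4.30 in the controls, while miR-124-3p was at 5.65 against 5.70 and miR-128-3p at 6.03 against 6.20. The summed signal of the 3 choroid plexus miRNAs (miR-204-5p, miR-211-5p and miR-448-3p, of which 2 were detected on all 9 arrays) was 3.07 to 4.88, 5.36 to 8.74 and 2.85 to 5.56, above all controls at the lower dose and overlapping them at the higher dose. For red cells (miR-451a and miR-144-3p, of which 1 was detected on all 9 arrays) it was 2.90 to 3.69, 2.98 to 3.51 and 3.77 to 4.08. For leukocytes and microglia (miR-142-3p, miR-142-5p, miR-223-3p and miR-150-5p, of which miR-142-5p was detected on no array) it was 0.780 to 0.803, 0.729 to 0.851 and 0.806 to 0.881. Both of these sums lay above all controls at the higher dose and overlapped them at the lower dose. For oligodendrocytes (miR-219-5p and miR-338-3p) it was 3.63 to 5.24, 4.47 to 5.53 and 2.57 to 5.87, and for endothelium (both strands of miR-126) 5.48 to 6.02, 5.57 to 6.06 and 5.53 to 6.34, overlapping at both doses. Their part in the let-7 values was not tested. In a tissue sample, fewer cells of a type and less RNA per cell cannot be told apart.

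Families encoded beside let-7 genes were represented by 5 miRNAs. miR-99a, miR-99b, miR-100, miR-125a and miR-125b (5p strands), of which miR-99a, miR-99b, miR-100 and miR-125a lie beside let-7c-1, let-7e, let-7a-2 and let-7e, were all tested. Their median difference was 0.02 at 1 mg/kg bw, with 2 of 5 below 0, and 0.04 at 5 mg/kg bw, with 1 of 5 below 0. None of the 5 had an unadjusted p under 0.05 in limma at either dose, where 7.78% and 9.43% of all tested miRNAs had one. At 5 mg/kg bw miR-125a-5p was higher without overlap, 1 of 5, where 6.60% of the tested miRNAs were higher in that way. Its log2 level was 1.98, 1.88 and 1.86 there and 1.85, 1.83 and 1.85 in the controls, a difference of 0.06 (standard error 0.07, adjusted p = 0.784 in limma). miR-125b-5p, at rank 8 in the controls between let-7a and let-7f, differed by 0.02 and 0.09 (standard error 0.08 for both). The difference between these partners and the let-7 members was not tested.

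Of the 10 passenger (3p) strands of let-7 hairpins on the array, 4 were detected throughout at least 1 group and so entered the tests, at signals of 19.9 to 32.2 units in the controls. At 5 mg/kg bw all 4 lay below the control mean, with differences from -0.34 to -0.04, and 2 of them, let-7a-1-3p and let-7d-3p, had an unadjusted p under 0.05 (9.43% of all tested miRNAs had one), with adjusted p-values of 0.376 and 0.510 in limma. let-7k differed by -0.15 at the lower and -0.09 at the higher dose (standard error 0.09 for both, adjusted p = 0.645 and 0.763 in limma).

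Outside the family, the levels most like the mean of the 9 members over the 9 arrays were those of miR-181c-5p (r = 0.970), miR-497-5p (r = 0.967) and miR-29c-5p (r = 0.957). They were picked for this likeness among all tested miRNAs, so that the values are a description.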

How the data were processed

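Hippocampal total RNA of 9 mice was labelled with Cy3 and hybridized to Agilent mouse miRNA arrays (version 19.0). The deposited spot intensities were made by the authors with Feature Extraction 10.7 and were not normalized between arrays. The authors also deposited a table of log2 values, whose columns share their upper quartile and maximum. The methods name GeneSpring, and the normalization is not given in the sources used here.

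From the processed signals, outlier spots were left out, spots were averaged per probe and probes summed per miRNA. Each array was scaled to its 75th percentile, taken over the 395 miRNAs found on every array, floored at its lowest detected signal, and put on the log2 scale. A 3-group model was fitted to 424 miRNAs (34.0% of 1247) with limma 3.58.1 in R 4.3.3, with Benjamini-Hochberg adjustment over all 424. Exact permutation tests are two-sided. The steps were tested on simulated data. The p-values of limma rest on the spread between mice within groups, pooled over the 3 groups and drawn towards that of the other miRNAs.

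The members, lists and tests were chosen with earlier results of these data known. Besides the members, the text names miR-99, miR-100 and miR-125 partners, passenger strands, other miRNAs with the seed and the 3 most alike over the arrays. Alternatives were normexp (offset 50), the files' own total signals, mean over probes, the brightest probe, other scalings and filters, the deposited table, 2 groups alone, the LSD comparison, blocks for replicate number, slide and row, and each array left out. Marker lists of oligodendrocytes, red cells, leukocytes and endothelium were also summed.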

Additional observations from a re-analysis of the deposited data

How the results depend on the processing

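The 9 members had 0 adjusted p-values under 0.05 in limma or the LSD comparison under any of 25 alternatives for each dose, and at an unadjusted p under 0.05 at most 2. At 1 mg/kg bw the count of 0 became 1 with normexp, with the mean over probes and with quantile normalization, and 2 with the LSD comparison. The member was miR-98 in each of these, joined by let-7e in the LSD comparison. At 5 mg/kg bw the count became 1 with the brightest probe (let-7i) and with the LSD comparison (miR-98). It became 2 with the slide as a block, which equals leaving out 5 mg/kg bw replicate 3. Between the doses it became 1 with the LSD comparison (miR-98), and for the slope 2 with the slide as a block. Leaving out 1 array at a time gave 0 at 1 mg/kg bw and between doses, and 0 to 2 for the higher dose and the slope. The count over all tested miRNAs moved with the setting too. Over the alternatives except that without a filter, it ran from 8 to 49 at 1 mg/kg bw and from 14 to 120 at 5 mg/kg bw. Between doses it ran from 8 to 35, and for the slope from 13 to 100. A count of 1 or 2 members is therefore not read as a result about the family.

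The median difference was turned to 0.0206 at the lower dose and 0.0615 at the higher dose by the files' total signals, under which the median of all tested miRNAs was 0.10 and 0.14. It was turned to 0.0193 at the higher dose without scaling, which moves all miRNAs of an array alike and put the median of all tested at 0.11. At 1 mg/kg bw it moved to 0 with quantile normalization and the deposited table and to -0.0091 without scaling, where the median of all tested was 0.08. Quantile normalization holds a miRNA that keeps its rank at a difference of 0. Over left-out arrays the median between the doses ran from -0.05 without 5 mg/kg bw replicate 3 to 0.08 without 5 mg/kg bw replicate 1. Over left-out arrays it ran from -0.19 to -0.09 at 1 mg/kg bw and from -0.18 to -0.06 at 5 mg/kg bw. The cause was not tested. The family's share of the control signal moved to 13.3% with the total signal, 13.5% with normexp and 14.2% in the deposited table.

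Deviations of arrays with the same replicate number correlated between -0.65 and 0.74 over 9 pairs, with 5 of them above 0.1. Correlations of both signs from so few arrays showed no uniform pairing by replicate number and cannot exclude one. The fits given above used no pairing. With the replicate number as a block the count was 0 in every comparison, and the medians were -0.12 and -0.09. The slope could not be fitted for 2 groups alone. Over these alternatives except that without a filter, the number of all tested miRNAs at an unadjusted p under 0.05 ran from 8 to 49 at 1 mg/kg bw (33 as given), from 14 to 120 at 5 mg/kg bw (40), from 8 to 35 between doses (16) and from 13 to 100 for the slope (28). Without a filter it was 780, 30, 20 and 17 of 1247, where values at the floor enter.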
